A study of Mus musculus with 10 samples.

Results

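The translation initiation factor genes of mouse liver were described in animals given napabucasin or its vehicle. Members were the protein-coding genes of the deposited count table whose symbol starts with Eif and a digit, with the genes on X and Y left out, and they numbered 52 of 54532 genes. They were grouped into 8 factor complexes by known function. The family was selected on values of this same contrast, so its differences between the groups are given as a description and not as an independent test. The 3 protein-coding Eif genes on the sex chromosomes and 10 Eif-named rows of other biotypes were not included.

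RNA was sequenced from whole liver of 5 vehicle and 5 napabucasin mice, which the study used to look for genes and pathways that the compound affects in the liver. Napabucasin (BBI608), a quinone developed as an inhibitor of STAT3-driven transcription, was gavaged at 20 mg/kg each day for 7 days. The vehicle mice received 1% sodium carboxymethyl cellulose (NaCMC) on the same schedule. The labels give no strain, sex or age, and no genetic change is named in either group. Library totals ran from 14124484 to 17759967 counts, and the members together took 0.314% to 0.504% of them.

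Initiation is the stage at which the ribosome finds the start codon of an mRNA. eIF2 brings the initiator tRNA to the small ribosomal subunit, eIF1, eIF1A and eIF3 prepare that subunit, and eIF4F binds the mRNA cap and unwinds the leader. Kinases that phosphorylate the alpha subunit of eIF2 and binding proteins that sequester the cap-binding protein eIF4E slow the process under stress, amino acid shortage, viral infection and fasting. The liver makes most plasma proteins and adjusts initiation with feeding through the mTORC1 kinase. RNA levels, as measured here, carry no information on phosphorylation or on the rate of translation.

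Short stretches of promoter are shown because Eif2ak2 is a textbook interferon-stimulated gene, and because the E-box was, of the motifs searched, the one whose share differed most from that of all genes. RefSeq start sites on GRCm38.p6 were matched for 40 of the 52 members, with 53 windows of 250 bases before to 50 bases after the start. The first line holds the core of an interferon-stimulated response element, searched as GAAANNGAAA, in the start region of Eif2ak2, and the other 4 hold an E-box, searched as CACGTG. Capitals mark the motif, and positions are chr17:78882535-78882564 (minus strand) for Eif2ak2, chr11:69672590-69672629 (minus) for Eif4a1, chr5:134639483-134639522 (minus) for Eif4h, chr7:28981910-28981949 (minus) for Eif3k and chr7:108934330-108934369 (plus) for Eif3f.
Eif2ak2: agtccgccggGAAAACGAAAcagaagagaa
Eif4a1: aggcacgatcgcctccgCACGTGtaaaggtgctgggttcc
Eif4h: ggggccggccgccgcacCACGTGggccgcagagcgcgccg
Eif3k: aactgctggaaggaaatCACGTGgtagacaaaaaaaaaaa
Eif3f: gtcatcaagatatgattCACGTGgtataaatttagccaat
Both strands were searched. An E-box lay in a window of 10 of the 40 matched members (25%), which were Eif1b, Eif3a, Eif3f, Eif3k, Eif4a1, Eif4e, Eif4g1, Eif4h, Eif5a and Eif5a2, against 8.09% of all 27025 genes of the table. Member windows were richer in G and C, with a median of 62.3% against 52.7% of bases over all windows, and this was not matched in the comparison. The interferon core was in 3 of 40 members (7.5%), Eif2ak2, Eif2s1 and Eif3a, against 3.99% of all genes. A core of the element bound by ATF4, searched as TGATGNAA, was in 0 of 40 against 4.51% of all genes. A start of C followed by at least 4 pyrimidines, as in mRNAs with a terminal oligopyrimidine tract, was found at 1 of 53 member windows (1.89%, Eif3f) against 2.51% of all windows.

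Levels between genes were compared on the deposited FPKM scale, which divides counts by gene length and a library size. The order of genes therefore depends on the gene lengths used, such as 1612 bases for Eif3h and 6719 for Eif3e. Eif1, the start-codon selection factor, had the highest mean FPKM of the family at 125.8, followed by Eif5a, which carries the hypusine residue and eases peptide bond formation, at 103, and Eif3h, a subunit of eIF3, at 94.3. Their FPKM ranges overlapped in the vehicle livers, at 99.1 to 172, 88.3 to 145 and 83.6 to 110. Next came the RNA helicases Eif4a2 (46.1) and Eif4a1 (45.5), whose vehicle ranges of 40.1 to 56.8 and 43.3 to 53.7 lay wholly below those of the first 3. The kinases were near the bottom: Eif2ak1 had a mean FPKM of 6.02, Eif2ak2 of 3.37, Eif2ak3 of 2.76 and Eif2ak4 of 2.27. Eif4e1b, the germ-cell form of eIF4E, had 0 counts in every library, and Eif5a2, the second hypusine-bearing gene, had between 3 and 23 counts, or 0.424 ± 0.291 and 0.614 ± 0.383 CPM (counts scaled to a common library size by TMM) in vehicle and napabucasin livers (SD, n = 5 each). These 2 did not pass the filter on low counts, so 50 of the 52 members were tested.

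**Figure D1:**
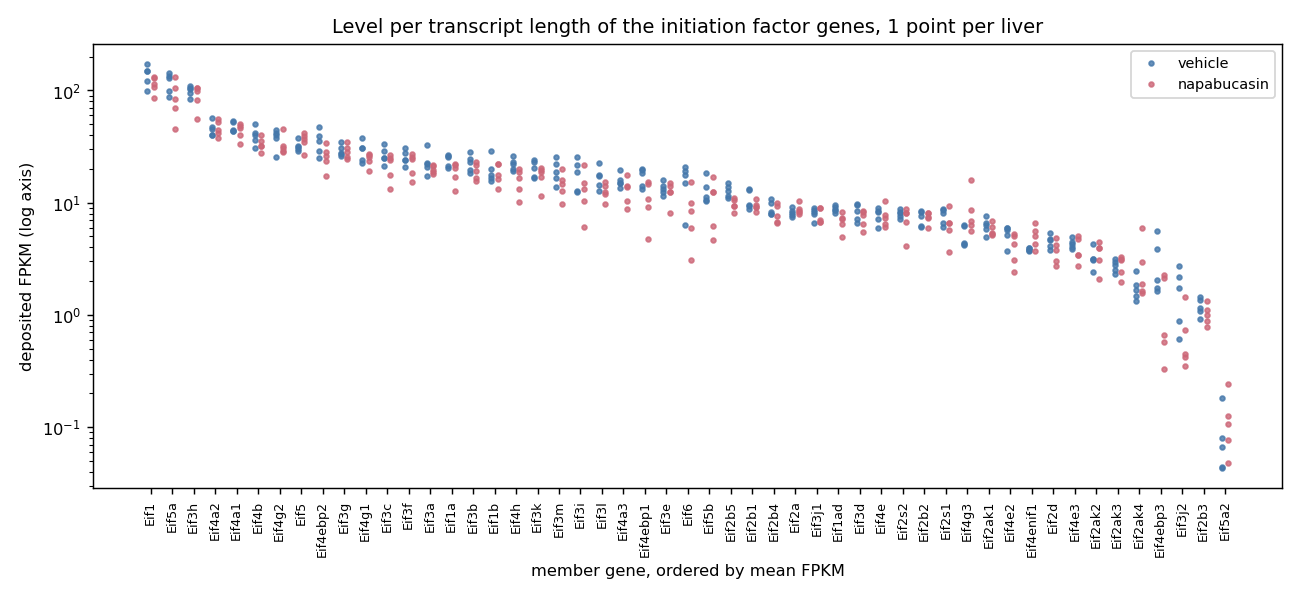
Deposited FPKM (log axis) of each member with a count, ordered by mean FPKM, with 1 point per liver and vehicle in blue and napabucasin in red. Eif1, Eif5a and Eif3h stand at the left end, and Eif5a2, at about 0.102 FPKM, at the right end.

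No initiation factor gene passed the threshold between the groups. At an adjusted p under 0.05, edgeR's quasi-likelihood test gave 0 calls among 14244 genes (0%), and the smallest adjusted p among the members was 0.270, that of Eif4g3. DESeq2 called 1.67% of the genes to which it gave an adjusted p but no member, with a smallest member adjusted p of 0.142. The members lay mostly slightly below 0: 41 of 50 had a log2 fold change (napabucasin against vehicle) under 0 and 9 over 0, with a median of -0.20 against 0.00 over all genes tested. The difference was under 0.5 in size for 44 of the 50. In simulated counts edgeR called 0 of 48 genes changed 1.5-fold, so real differences of this size can be missed. The changed genes were drawn at random from all genes tested, and the simulation held no shift shared by the genes of a library. It is therefore only a rough guide for the members.

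At an unadjusted p under 0.05 in edgeR, 2 members were higher, Eif4g3 and Eif4enif1, against a background of 9.34% of all genes, and 8 were lower, against 5.83%. The 8 were Eif4ebp3, Eif3j2, Eif6, Eif4ebp1, Eif4h, Eif3l, Eif2b5 and Eif1ad. None of those 10 names is independent of the values: Eif4enif1, Eif4h and Eif3l were singled out after their values were seen, and the others came from choices made with earlier results of these data known, among them the largest fold change in a complex. With the replicate number as a block, 3 members were higher, against 11.8% of all genes in the same fit, and 14 lower, against 8.81%, with a smallest member adjusted p of 0.0673 for Eif6. The 10 members past an unadjusted p of 0.05 without the block were also past it with the block, which added Eif2ak4 on the higher side and Eif5a, Eif4ebp2, Eif1a, Eif3i, Eif3m and Eif4e2 on the lower side. Within same-numbered pairs of libraries, CPM was lower under napabucasin in all 5 pairs for 13 of the 50 members (26%), against 9.72% of all genes, and higher in all 5 for 2 (4%), Eif4g3 and Eif2ak4, against 9.62%. Ranges of CPM that did not overlap between the groups were found for 0 members in either direction, where all genes gave 1.21% on the higher side and 0.934% on the lower side. The number of lower members was 0 without vehicle replicate 5, 1 without vehicle replicate 3 or napabucasin replicate 2, and 3 without vehicle replicate 4, napabucasin replicate 1 or napabucasin replicate 3. Leaving out vehicle replicate 1 gave 12. The lower calls over all genes moved too, from 830 of 14244 in the main fit. They were 457 of 14518 without vehicle replicate 5, 522 of 14542 without vehicle replicate 3 and 458 of 14444 without napabucasin replicate 2. The lower calls were 577 of 14468 without vehicle replicate 4, 580 of 14487 without napabucasin replicate 1 and 717 of 14429 without napabucasin replicate 3. Without vehicle replicate 1 they were 1198 of 14520. The number of higher members was 1 without any one of vehicle replicates 3, 4 and 5 and napabucasin replicates 1 and 2. Over all genes the higher calls numbered 852 to 1052 in those fits, against 1331 of 14244 in the main fit.

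**Figure D2:**
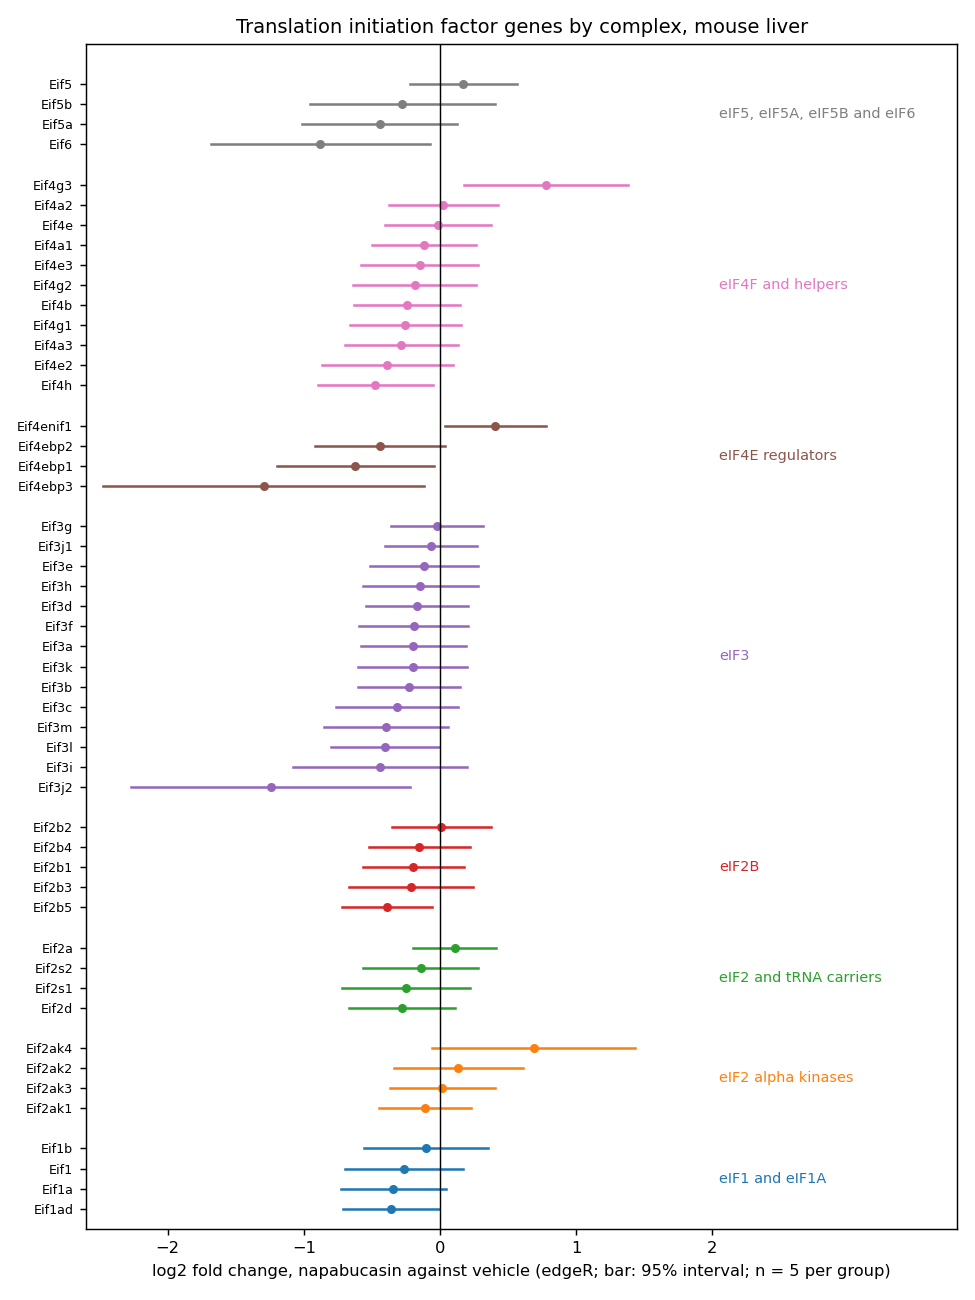
Log2 fold change of napabucasin against vehicle for the 50 tested members by complex, with 95% intervals from edgeR (5 livers per group). Most points lie left of 0, 40 of the 50 intervals include 0, and Eif4g3 and Eif2ak4 lie farthest to the right.

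The shift was largest in napabucasin libraries 1 and 2. The median of log2 CPM over members, each centred on its own mean, was -0.43 in napabucasin replicate 1 and -0.22 in replicate 2, and between -0.04 and 0.22 in the other 8 libraries. Napabucasin replicate 1 had the lowest CPM of all 10 libraries for 26 of 50 members and the highest for 5, while vehicle replicate 5 had the highest for 15. In the same pair rRNA genes took 1.09% of counts each, more than in any other library (0.195% to 0.912%), and the pair had the lowest medians for cytosolic ribosomal protein genes, -0.59 and -0.30. Mitochondrial genes took 19.9% and 15.3% of counts there, and 19.0% in vehicle replicate 1. Without napabucasin replicates 1 and 2, a comparison chosen after seeing the data, the member median was -0.07 against -0.02 over all genes, 35 of 50 members were below 0, and 0 were past an unadjusted p of 0.05 in either direction. All genes of that fit gave 525 higher and 340 lower of 14680, fewer than in the main fit. Without vehicle replicate 2 as well, the next highest in rRNA share, the member median was -0.05 with 1 member higher and 1 lower. All genes then gave 762 higher and 494 lower of 14436. Whether RNA quality had a part in the shift was not tested.

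**Figure D3:**
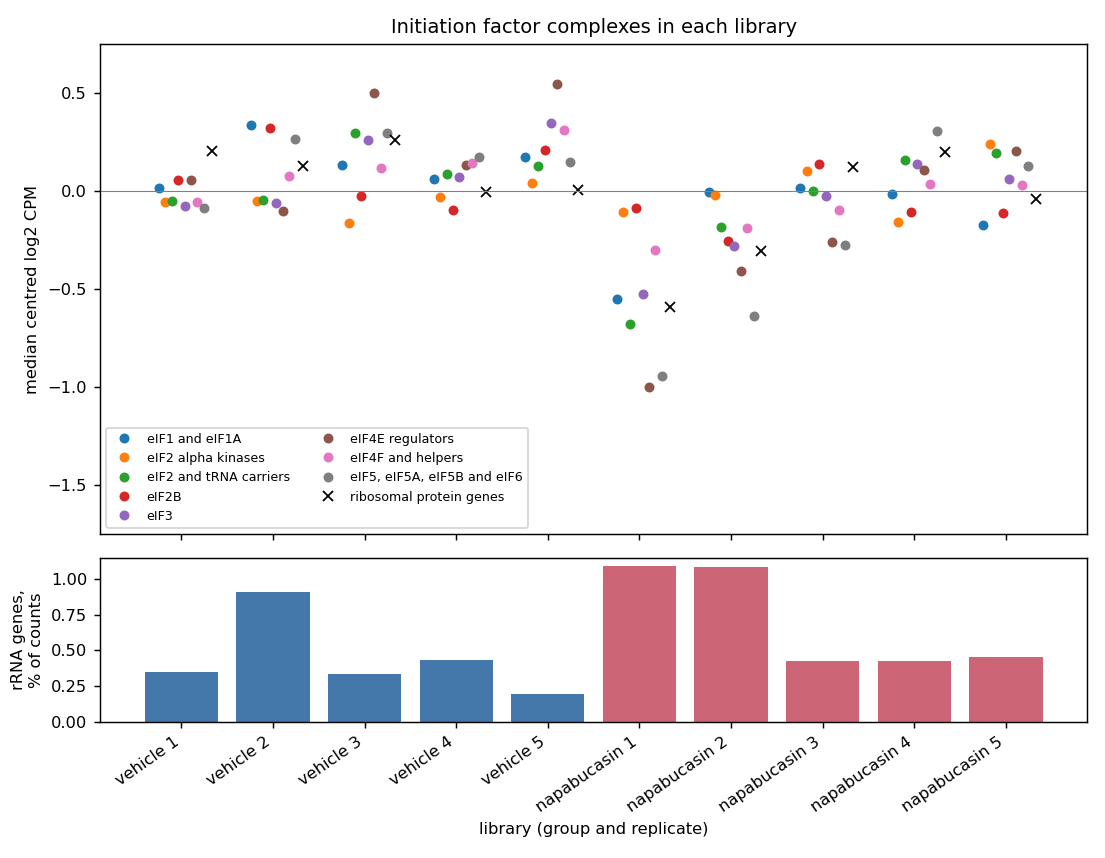
Upper panel: median over the members of each complex of log2 CPM centred on the gene's mean, in each library (coloured points), with cytosolic ribosomal protein genes as crosses; lower panel: share of counts in rRNA genes, as bars from 0. Napabucasin 1 has the lowest points, near -0.998 for the eIF4E regulators, and napabucasin 1 and 2 have the tallest bars.

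The genes of eIF4F and its regulators held the largest single differences in both directions. Values by library are given in the order of replicates 1 to 5, vehicle first. Eif4g3 encodes a scaffold of eIF4F that joins the cap-binding protein, the helicase and eIF3, and it spans 215487 bases of chromosome 4 (137993022 to 138208508, GRCm38). It measured 70.5, 72.0, 48.6, 47.5 and 46.1 CPM in vehicle replicates 1 to 5, and 180, 97.6, 75.9, 62.2 and 71.8 CPM in napabucasin replicates 1 to 5. Napabucasin 1 stood far above the rest, and the lowest napabucasin livers lay below the highest vehicle livers. The log2 fold change was 0.78 (SE 0.28), with 0.44 when napabucasin 1 was left out and 0.30 without napabucasin 1 and 2. Its paralog Eif4g1, the main scaffold (chromosome 16, 20668313 to 20692884), measured 169, 180, 228, 226 and 273 CPM in the vehicle group and 198, 143, 171, 190 and 199 CPM under napabucasin. The groups overlapped broadly, with a log2 fold change of -0.26 (SE 0.19), or -0.16 without vehicle replicate 5. On the FPKM scale the ratio of Eif4g1 to Eif4g3 was 3.63 to 8.97 in vehicle livers (median 7.09) and 1.67 to 4.62 in napabucasin livers (median 3.41), and the overlap came from vehicle 1 and 2 at 3.63 and 3.79.

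The other core members of eIF4F had log2 fold changes near 0, which does not show that their levels were equal. Eif4e, the cap-binding protein, measured 36.1, 54.6, 49.8, 50.8 and 42.6 CPM in the vehicle group and 37.2, 47.4, 44.3, 62.9 and 39.8 CPM under napabucasin, a log2 fold change of -0.01 (SE 0.18). The helicase Eif4a1 measured 237, 232, 190, 189 and 190 CPM against 147, 175, 219, 203 and 212 CPM (-0.12, SE 0.18). Its close relative Eif4a2 measured 309, 220, 252, 215 and 237 CPM against 242, 283, 221, 206 and 301 CPM (0.02, SE 0.19). In these 3 genes the groups overlapped, and the sign of each small difference changed under some alternative. The FPKM ratio of Eif4a1 to Eif4a2 was 0.929 to 1.30 in vehicle and 0.749 to 1.22 in napabucasin livers. On this scale, which rests on the gene lengths used, the helicase paralogs were about equally abundant. Reads of such close paralogs can be shared in counting, which leaves their separate values uncertain. Eif4h, a small partner of the helicase, measured 123 ± 13.4 CPM in the vehicle group and 88.3 ± 22.1 CPM under napabucasin (SD over 5 livers), a log2 fold change of -0.48 (SE 0.20), or -0.26 without napabucasin 1 and 2. Over the 11 tested genes of eIF4F and its helpers, 9 were below 0 and the median was -0.19. Without napabucasin 1 and 2 these were 7 and -0.07.

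The genes for eIF4E-binding proteins, which block eIF4E until mTORC1 phosphorylates them, were lower in the napabucasin means. With the transporter Eif4enif1 they had a median of -0.53, or -0.29 without napabucasin 1 and 2. Eif4ebp1 (chromosome 8, 27260329 to 27276674) measured 31.6, 29.5, 43.8, 43.2 and 39.6 CPM in the vehicle group and 10.8, 20.5, 23.8, 34.2 and 32.8 CPM under napabucasin. Napabucasin 4 and 5 lay above vehicle 1 and 2, and the other 3 napabucasin livers lay below all vehicle livers. The log2 fold change was -0.62 (SE 0.27), and -0.32 without napabucasin 1 and 2. Eif4ebp2, the more abundant form in these livers by FPKM, measured 171, 149, 230, 206 and 271 CPM against 102, 138, 163, 154 and 198 CPM. Its groups overlapped between 149 and 198 CPM, while the napabucasin liver was the lower one in all 5 same-numbered pairs. Its log2 fold change was -0.44 (SE 0.22), with an unadjusted p of 0.0664 in edgeR and 0.0248 with the replicate block, and -0.26 without napabucasin 1 and 2. Eif4ebp3 was scarce, at 1.54, 1.24, 2.91, 1.29 and 4.09 CPM against 0.249, 0.433, 0.498, 1.60 and 1.71 CPM, which rests on 4 to 57 counts per library. Its log2 fold change of -1.29 (SE 0.55) is uncertain for a further reason: it overlaps Ankhd1 on the same strand, with which it can share reads. The Eif4e to Eif4ebp2 ratio of FPKM was 0.151 to 0.353 in vehicle (median 0.209) and 0.193 to 0.393 in napabucasin livers (median 0.332), with wide overlap. Eif4enif1, which carries eIF4E into the nucleus, went the other way, with 24.6 ± 0.536 CPM in the vehicle group and 32.6 ± 7.54 CPM under napabucasin (SD over 5 livers) and a log2 fold change of 0.41 (SE 0.17), or 0.18 without napabucasin 1 and 2.

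**Figure D4:**
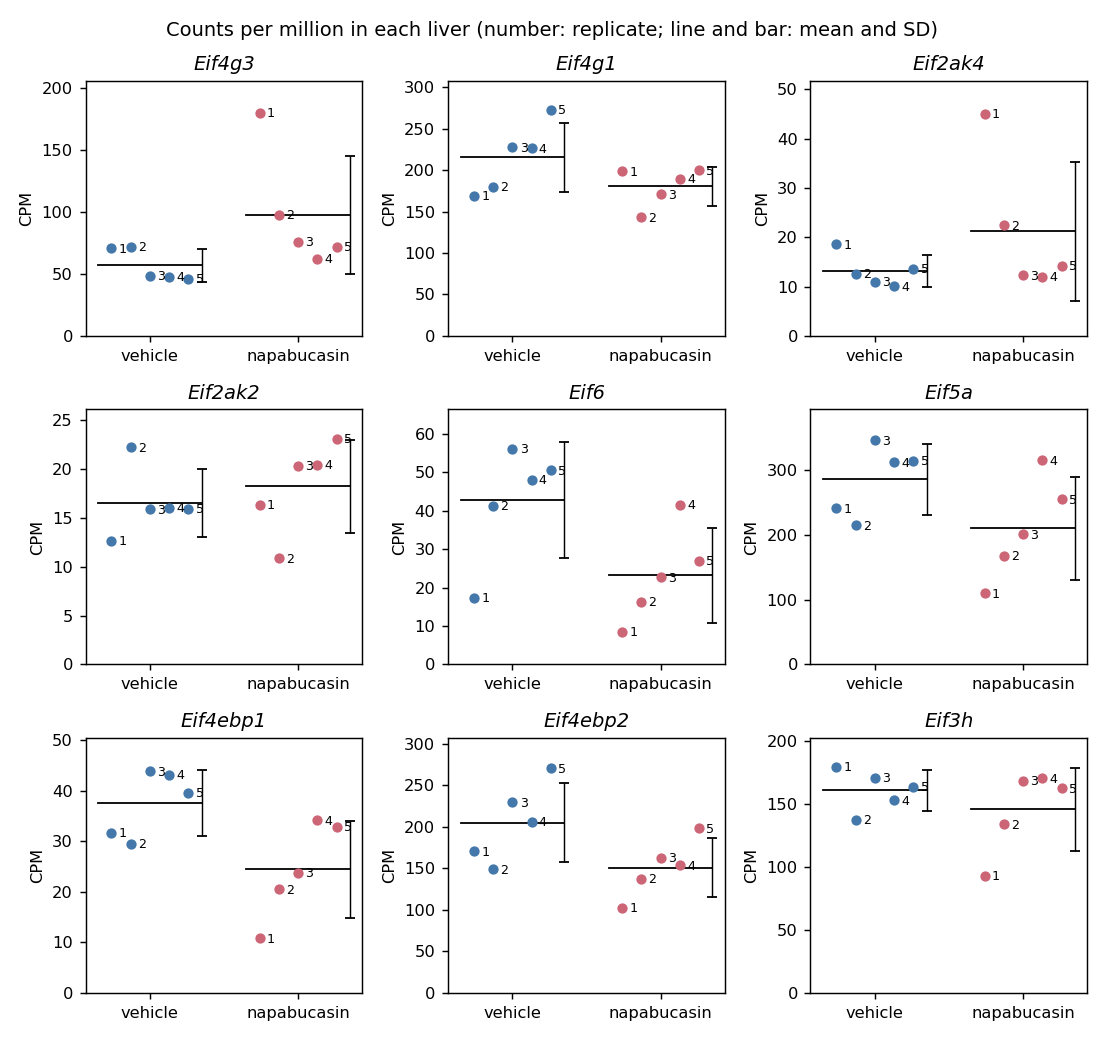
CPM of 9 members in each liver, with replicate numbers beside the points, the group mean as a line and the SD as a bar (5 livers per group; each axis starts at 0). Napabucasin 1 is the highest liver for Eif4g3 (180 CPM) and Eif2ak4 (45.1 CPM) and the lowest for Eif6, Eif5a, Eif4ebp1, Eif4ebp2 and Eif3h.

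The 4 kinases that phosphorylate eIF2 alpha answer different stresses. Of the 4, 3 were above 0, with a median of 0.08, or 2 and 0.03 without napabucasin 1 and 2, and the median was -0.01 without napabucasin replicate 5. How they differ from the rest of the family was not tested. Eif2ak4 (GCN2, the sensor of uncharged tRNA; chromosome 2, 118388618 to 118475234) measured 18.6, 12.6, 10.9, 10.1 and 13.6 CPM in the vehicle group and 45.1, 22.4, 12.3, 12.0 and 14.2 CPM under napabucasin. Its log2 fold change of 0.69 (SE 0.35) rested on napabucasin 1 and 2: the other 3 napabucasin livers fell inside the vehicle range, and the value was 0.22 without napabucasin 1 and -0.04 without both. The napabucasin liver was the higher one in all 5 same-numbered pairs, by small amounts in pairs 3 to 5, and the unadjusted p in edgeR was 0.0673, or 0.0289 with the replicate block. Eif2ak2 (PKR, the sensor of double-stranded RNA; chromosome 17, 78852564 to 78882573) measured 12.7, 22.3, 15.9, 16.1 and 15.9 CPM against 16.3, 10.9, 20.3, 20.5 and 23.1 CPM. Both groups covered nearly the same range, with a log2 fold change of 0.13 (SE 0.22), and 0.35 without napabucasin 1 and 2. Eif2ak1 (HRI, the sensor of heme shortage) measured 33.9, 28.9, 37.3, 35.7 and 42.9 CPM against 30.5, 29.5, 34.6, 31.1 and 39.9 CPM (-0.11, SE 0.16). Eif2ak3 (PERK, the sensor of unfolded protein in the endoplasmic reticulum) measured 15.5, 18.4, 14.1, 16.9 and 18.7 CPM against 12.2, 18.8, 19.0, 14.6 and 20.0 CPM (0.02, SE 0.18, with the other sign under several alternatives). For HRI and PERK the groups overlapped over nearly their whole range.

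Genes downstream of eIF2 alpha phosphorylation showed a mixed picture. Of 14 tested genes of the integrated stress response, 8 were above 0 and 6 below, with a median of 0.23. An unadjusted p under 0.05 in edgeR was reached by 2 on the higher side and 0 on the lower side. Over all genes tested, 9.34% were past that level on the higher side and 5.83% on the lower side. Without napabucasin 1 and 2 the 14 split into 7 above and 7 below 0, with a median of 0.10 and again 2 higher. All genes of that fit gave 525 higher and 340 lower of 14680. The 2 as first counted were Atf3, an early stress transcription factor, at 4.35 ± 1.50 against 14.7 ± 12.9 CPM (log2 fold change 1.76, SE 0.48, or 1.02 without napabucasin 1 and 2), and Nupr1, a stress-induced chromatin protein, at 4.21 ± 1.72 against 8.51 ± 0.732 CPM (1.01, SE 0.30; SD, n = 5 each). Atf4, the transcription factor whose translation the pathway favours, measured 124 ± 27.9 and 117 ± 19.6 CPM (-0.09, SE 0.19). None of the 14 passed an adjusted p of 0.05 in edgeR. Interferon-stimulated genes, of which Eif2ak2 is classically one, were above 0 in 7 of 7 cases (median 0.80), and 3 of them, Ifit3, Irf7 and Oas1a, were higher at an unadjusted p under 0.05 in edgeR. Without napabucasin 1 and 2 all 7 were past that level, with a median of 1.04. Summed T cell and B cell markers were higher in every napabucasin liver than in any vehicle liver: the 5 T cell markers ran from 5.64 to 9.09 CPM in the vehicle group and from 10.3 to 21.6 CPM under napabucasin, and the 5 B cell markers from 13.5 to 22.3 and from 39.1 to 75.8 CPM. All 5 Kupffer cell and all 5 sinusoidal endothelial markers had fold changes above 0, with summed ranges that overlapped between the groups (228 to 1212 against 450 to 1697 CPM, and 36.5 to 127 against 103 to 177 CPM), and 0 of the 5 hepatocyte markers did. No listed marker of these types was at 0 in all libraries. In whole liver, fewer cells of a type and less RNA per cell cannot be told apart, and the part of immune cells in the member values was not tested.

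eIF2 and the factors that load or release initiator tRNA lay near the family median, at a median of -0.20 over 4 genes, or 0.02 without napabucasin 1 and 2. Eif2s1, the alpha subunit and target of the kinases (chromosome 12, 78861819 to 78887010), measured 30.6, 33.5, 43.6, 40.5 and 42.0 CPM in the vehicle group and 18.6, 28.9, 32.7, 46.9 and 32.8 CPM under napabucasin. Napabucasin 1 was the lowest liver and napabucasin 4 the highest, so the vehicle range lay inside the napabucasin range. The log2 fold change was -0.25 (SE 0.22), with -0.11 when napabucasin 1 was left out, -0.43 when napabucasin 4 was, and -0.03 without napabucasin 1 and 2. Eif2a, which despite its name is not a subunit of eIF2 but a separate tRNA carrier, had the smallest SE of the family, at 50.5, 48.8, 55.9, 45.6 and 51.0 CPM against 52.2, 49.7, 51.3, 54.6 and 63.9 CPM (0.11, SE 0.14). Eif2d, which delivers tRNA independently of eIF2, measured 35.3, 28.6, 39.7, 30.6 and 34.2 CPM against 20.7, 22.7, 30.8, 28.3 and 36.3 CPM (-0.28, SE 0.18, or -0.09 without napabucasin 1 and 2). Napabucasin 1 and 2 were its lowest livers, and napabucasin 3 and 5 lay within the vehicle range.

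Among the 5 subunits of eIF2B, the exchange factor that recharges eIF2 with GTP and is blocked by phosphorylated eIF2, the median was -0.19 with 4 below 0, and -0.11 with 5 below 0 without napabucasin 1 and 2. Eif2b5, the catalytic epsilon subunit (chromosome 16, 20498817 to 20509323), measured 30.1, 33.8, 36.0, 28.6 and 38.0 CPM in the vehicle group and 24.9, 21.2, 28.8, 27.9 and 24.4 CPM under napabucasin. Only the vehicle 4 value of 28.6 lay below the highest napabucasin value of 28.8, so the groups came close to separating. The log2 fold change was -0.39 (SE 0.15; edgeR adjusted p = 0.288), and it was -0.30 without napabucasin 1 and 2. Eif2b2, the beta subunit, stood at 0.01 and marked the upper end of the complex.

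eIF3, the large scaffold on the small ribosomal subunit, was the largest complex, and all 14 tested genes were below 0, from -0.02 for Eif3g to -1.24 for Eif3j2, with a median of -0.20. With library size as the only scaling 13 of the 14 were below 0, Eif3g being the exception at 0.06, and without napabucasin 1 and 2 the number was 10, with a median of -0.08. Eif3h, the most abundant by FPKM (chromosome 15, 51786558 to 51865523), measured 180, 138, 171, 153 and 164 CPM in the vehicle group and 93.0, 134, 169, 171 and 163 CPM under napabucasin. Napabucasin 1 alone lay far below, and the log2 fold change was -0.14 (SE 0.20), or 0.05 without napabucasin 1 and 2. Eif3j2, a single-exon near copy of Eif3j1 on chromosome 18, measured 2.14, 1.47, 4.19, 5.17 and 6.39 CPM against 1.81, 1.08, 0.829, 1.01 and 3.49 CPM (-1.24, SE 0.48). It rests on 15 to 92 counts per library and can share reads with Eif3j1, so its value is uncertain, and Eif3j1 itself stood at -0.07 (SE 0.16). Eif3l, an outer subunit, measured 62.0 ± 12.9 against 46.9 ± 8.05 CPM (SD, n = 5 each; -0.40, SE 0.19).

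The proportions of the subunits were taken as the ratio of each gene's FPKM to the median subunit of the same library. The level of each ratio depends on the gene length used for FPKM. The group means of this ratio differed by less than the SD of either group for 11 of the 14 subunits, and by more than the smaller SD but less than the larger for 3, which were Eif3j1 (0.414 ± 0.0675 in vehicle and 0.491 ± 0.149 in napabucasin livers), Eif3m (0.965 ± 0.104 and 0.887 ± 0.0467) and Eif3j2 (0.0786 ± 0.0355 and 0.0435 ± 0.0281). Of the others, Eif3h had 5.08 ± 0.868 in vehicle and 5.48 ± 0.615 in napabucasin livers (SD, n = 5 each). Eif3c, a core scaffold subunit, had 1.35 ± 0.0990 and 1.30 ± 0.198, and Eif3d, which can bind the cap itself, had 0.423 ± 0.0851 and 0.454 ± 0.0493. The median subunit itself measured 16.8, 16.8, 23.1, 18.8 and 24.1 FPKM in vehicle and 12.0, 14.2, 17.0, 21.0 and 17.3 FPKM in napabucasin livers. Napabucasin 1 and 2 were again lowest, and the other 3 lay within the vehicle range.

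eIF1 and eIF1A help the small subunit scan for the start codon, and their genes were grouped with the eIF1A-related Eif1ad. All 4 were below 0, with a median of -0.30, or -0.23 without napabucasin 1 and 2. Eif1 (chromosome 11, 100319885 to 100322096) measured 212, 318, 362, 258 and 306 CPM in the vehicle group and 184, 283, 226, 243 and 275 CPM under napabucasin, a log2 fold change of -0.27 (SE 0.20). Napabucasin 1 was the lowest liver of all, and the other napabucasin livers lay within the vehicle range. Eif1ad measured 20.2, 24.2, 22.9, 21.2 and 21.0 CPM against 12.5, 16.3, 20.3, 17.8 and 18.5 CPM. Napabucasin 3, at 20.3, exceeded only vehicle 1, and the log2 fold change was -0.36 (SE 0.16), or -0.22 without napabucasin 1 and 2.

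The late factors, which act around or after the joining of the subunits, spanned a wide range, with a median of -0.36 over 4 tested genes, or -0.06 without napabucasin 1 and 2. Eif6, which keeps the large subunit from joining too early and is regulated by insulin in liver (chromosome 2, 155819832 to 155826925), measured 17.4, 41.3, 56.1, 48.1 and 50.5 CPM in the vehicle group and 8.54, 16.3, 22.7, 41.5 and 27.0 CPM under napabucasin. Vehicle 1 was low in its group and napabucasin 4 high in its own, and these 2 livers made the overlap together with vehicle 2. The log2 fold change was -0.88 (SE 0.37), and -0.50 without napabucasin 1 and 2. Eif5a (chromosome 11, 69916714 to 69921958) measured 240, 214, 345, 312 and 314 CPM against 110, 167, 201, 315 and 255 CPM (-0.44, SE 0.27). Its 3 lowest livers were all napabucasin livers, while napabucasin 4 matched the upper vehicle livers, and without napabucasin 1 and 2 the value was -0.16. The napabucasin liver was the lower one in 4 of 5 same-numbered pairs, and the unadjusted p in edgeR was 0.118, or 0.0317 with the replicate block. Eif5, which triggers GTP hydrolysis on eIF2, stood at 0.17 (SE 0.18).

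Neighbouring parts of the translation apparatus were read from lists chosen by function. Of 13 other initiation factors and helpers, 7 were above 0 and 6 below, with a median of 0.03, and 2 were lower at an unadjusted p under 0.05 in edgeR: Pabpc4, a cytoplasmic poly(A)-binding protein, at 32.1 ± 7.22 against 21.2 ± 4.25 CPM (log2 fold change -0.60, SE 0.20), and Paip2b, a repressor of poly(A)-binding protein, at 13.4 ± 2.52 against 8.21 ± 3.12 CPM (-0.71, SE 0.27). Without napabucasin 1 and 2 these were -0.44 and -0.46, with 0 of the 13 past that level. Of 12 genes of mTORC1, its regulators and its S6 kinases, 7 were above 0 and 5 below, with a median of 0.06 and none past an unadjusted p of 0.05 in edgeR, and without napabucasin 1 and 2 the balance turned to 5 above and 7 below, with a median of -0.02. The list mixes activators with inhibitors, among them Tsc1 (0.59), Tsc2 (0.40), Akt1s1 (-0.03) and Deptor (-0.22). Its counts therefore give no direction for mTORC1. All 9 genes of the elongation and termination list were below 0, with a median of -0.38, and 3 were past an unadjusted p of 0.05 in edgeR. Among the 3, Eef2, the translocase, measured 1243 ± 289 against 830 ± 205 CPM (-0.58, SE 0.24). The others were Eef1b2, an exchange factor for the tRNA-delivering eEF1A, at 151 ± 34.6 against 101 ± 38.3 CPM (-0.58, SE 0.26), and Eef1e1 (-0.49, SE 0.20). The list is not confined to elongation and termination factors, as it also takes in the kinase Eef2k and Eef1e1. Its counts therefore give no direction for elongation. Of 84 tested cytosolic ribosomal protein genes, 74 were below 0, with a median of -0.23 and 2 on the lower side past an unadjusted p of 0.05 in edgeR. This list was taken by symbol, as protein-coding genes starting with Rpl or Rps and a digit, without the Rps6k kinases. It also takes in Rps19bp1, which is not a ribosomal protein, and entries with a -ps suffix such as Rpl36a-ps1. When libraries were scaled by their totals alone, 62 of the 84 were below 0, and 10 of the 12 genes of the mTORC1 list were above 0. Without napabucasin 1 and 2, 47 of the 84 ribosomal protein genes were below 0, with a median of -0.02. Of the 9 on the elongation and termination list, 8 were then below 0, with a median of -0.31. None of either list was past an unadjusted p of 0.05 in edgeR in that fit. No gene of these lists passed an adjusted p of 0.05 in edgeR. The difference between these lists and the family was not tested.

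Hepatocyte markers far exceeded those of skeletal muscle and pancreas. The 5 hepatocyte markers summed to 40016 to 152503 CPM in the vehicle group and 69014 to 127149 CPM under napabucasin, and 3 skeletal muscle markers to at most 4.67 CPM. The 3 pancreas acinar markers, also meant to be near 0, summed to 5.74 to 13.5 CPM in vehicle and 4.36 to 11.9 CPM in napabucasin livers. Where these pancreas reads came from was not tested. Long genes tended to have the higher fold changes: over the 50 tested members, log2 fold change and gene span had a Spearman correlation of 0.37, against 0.12 over all genes tested. These points share the same 10 libraries, and the members of shorter span had a median of -0.27 against -0.15 for those of longer span. The members with an E-box in a promoter window had a median log2 fold change of -0.20 over 9 tested genes, and matched members without one had -0.18 over 30.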

How the data were processed

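Per the labels' protocols, poly(A) RNA from the livers of 5 vehicle and 5 napabucasin mice was copied from random primers. The authors deposited raw counts of reads for each gene, and the deposited FPKM values are the authors' counts scaled by gene length and by a library size. That size is not the total count but a size factor of the library times the geometric mean of the totals. For vehicle replicate 1 it was 11911995.5, against a total of 14124484. The submitters' processing notes name CASAVA, HISAT2 (2.0.5), featureCounts (version 1.5.0-p3) and the builds GRCm38 and mm10. Strand setting and annotation release: not given in the sources used here. Without a strand setting, reads of overlapping genes cannot be told apart: 15 members overlap a gene on the other strand and 8 a gene on the same strand. Gene symbols and gene coordinates are those of the deposited count table, and promoter windows and their coordinates are those of RefSeq on GRCm38.p6.

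Counts were fitted in R 4.3.3 with edgeR 4.0.16: filterByExpr, TMM library sizes and the quasi-likelihood F test in its robust form, with no term but treatment, over 14244 genes, adjusted by the Benjamini-Hochberg method at 0.05. Standard errors and intervals are those implied by the F statistic, CPM uses TMM library sizes, and centred values are log2(CPM + 0.5). The labels call the libraries biological replicates without naming what each came from beyond liver, so p-values reflect only how these libraries vary, and that variation may be partly technical; the common biological coefficient of variation in edgeR was 0.325. Depths of 14124484 to 17759967 counts leave members under about 5 CPM with few counts.

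Members, complexes and gene lists were chosen with earlier results of these data known. Members described by library were, in each complex, the tested gene with the largest fold change and that with the highest FPKM, all kinases and eIF4E-binding proteins, and Eif2s1, Eif4e, Eif4g1, Eif4a1, Eif4a2, Eif5a and Eif6; other names were chosen after their values were seen.

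Alternatives tried were other scalings and filters, DESeq2 1.42.0, limma 3.58.1 (voom with quality weights, and log2(FPKM + 1) or log2(FPKM + 0.1) at a mean FPKM of at least 0.5, and log2(FPKM + 1) without a filter), a replicate block, protein-coding genes only and each library left out. DESeq2 and voom were first run with other filter and moderation settings and then set to the same genes and to default moderation; no member passed in either form. Deviations of same-numbered libraries from their group means correlated at 0.166, 0.253, 0.243, 0.301 and 0.316 for numbers 1 to 5, so the numbers were taken to pair the libraries. This rests on the data, as the labels do not say what equal numbers share. Correlations of differently numbered libraries are not given here, so it was not shown that equal numbers are more alike. The main fit does not use the pairing. The procedure was tested on simulated counts. Protein sequences were not used here. One gene of the interferon list is not reported here and was left out of its counts and median.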

Additional observations from a re-analysis of the deposited data

Results flagged for a closer look

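One value stood apart from the other 4 of its group by Dixon's criterion. Mitochondrial genes took 19.0% of counts in vehicle replicate 1, against 7.03% to 8.78% in the other vehicle livers. The gap was 0.854 of the group's range, above the critical value of 0.71 for 5 samples. In all, 52 groups of 5 values were examined, and chance alone gives about 2.6 such values. Among the CPM values of the 22 members described by library, no group had a liver that far apart. Vehicle replicate 1 had the lowest CPM of its group for 22 of 50 members.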

How the results depend on the processing

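Members past an adjusted p of 0.05 numbered 0 under each of 24 alternatives. The member median stayed below 0 in all of them, from -0.26 to -0.05, and the members below 0 numbered 32 to 43. Genes past an adjusted p of 0.05 (0 in edgeR as reported) numbered 1 with library size as the only scaling, 19 without a filter, 233 with DESeq2, 132 with limma-voom, 1 with limma on log2(FPKM + 0.1), 7 without both high-mitochondrial libraries (vehicle 1 and napabucasin 1), and 0 to 18 with 1 library left out, 18 being without vehicle replicate 1. Lower members at an unadjusted p under 0.05 (8) numbered 2 with library size only, 5 with at least 10 counts in every library, 14 with limma-voom, 14 with the replicate block, 0 without napabucasin 1 and 2, 1 without these and vehicle 2, and 0 to 12 with 1 library left out. Higher members (2) numbered 3 with library size only, 3 with the replicate block, 1 without a filter, 1 with limma-voom, 0 without napabucasin 1 and 2, 1 without these and vehicle 2, 1 without both high-mitochondrial libraries, and 1 to 3 with 1 library left out. The calls over all genes moved too. Lower calls (830 of 14244 in the main fit) numbered 361 with library size only and 1564 with limma-voom. With at least 10 counts in every library they numbered 708 of 12302. They numbered 1255 with the replicate block and 457 to 1198 with 1 library left out. Without napabucasin 1 and 2 they numbered 340. Higher calls (1331 in the main fit) numbered 1407 with library size only, 1675 with the replicate block and 1616 with limma-voom. Without a filter they numbered 1682 of 26567. They numbered 525 without napabucasin 1 and 2 and 1069 of 14376 without both high-mitochondrial libraries. With 1 library left out they numbered 852 to 1633. With the block, 6 further lower members and 1 further higher member were past that level, and no member lost it. With library size only, 79.6% of all genes past an unadjusted p of 0.05 were higher, against 61.6%. The cause was not tested.

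Of 527 values of the 22 described members under alternatives, 525 lay within 1 SD of the reported value and 32 had the other sign, in Eif4e, Eif2ak3, Eif4a1, Eif4a2, Eif2ak4 and Eif3h. The 2 that moved were Eif2ak4 without napabucasin 1 and 2 and without these and vehicle 2 (-0.04 each). The SD used is the pooled SD between libraries of a group. Leaving out 1 library can hardly move a value by that much, so the count of 525 says little about stability. Of 192 complex medians, 3 had the other sign: the kinases without napabucasin replicate 5 (-0.01), and eIF2 and tRNA carriers without napabucasin 1 and 2 (0.02) and without these and vehicle 2 (0.01). Depth limits Eif4ebp3, Eif3j2 and Eif5a2.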
